A study of Zea mays with 6 samples.

Results

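Passenger-arm sequences were examined in small RNA libraries of maize ovaries. A plant miRNA is cut by DICER-LIKE1 from the stem of a folded precursor as a duplex of a pair of strands. One strand, the guide, is loaded into an ARGONAUTE protein and directs cleavage of matching mRNAs, and the other, the passenger strand, is for the most part degraded. AGO1, the main ARGONAUTE of plant miRNAs, favors a 5′ terminal uridine. The 2 strands come from the 5′ and the 3′ arm of the hairpin and are named -5p and -3p.

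The passenger arm was taken from the name: -3p for miR156, miR160, miR164, miR167, miR168, miR169, miR390, miR393, miR394, miR396, miR528 and miR529, and -5p for miR159, miR162, miR166, miR171, miR172, miR319, miR395, miR398, miR399, miR408 and miR827. This rule uses no measured value. It found 80 of the 161 known miRNA sequences listed, from 22 of the 23 families, with no sequence of miR528. The other 65 listed sequences of these families are called guide-arm sequences below. In the precursor listed for it, each of the 80 sequences lay on the arm given in its name. The same held for the 50 guide-arm sequences that carry an arm in the name.

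The inbred line Yu-A474 was used. On its ears, part of the ovaries have carpels that fail to close (incompletely fused carpels, IFC). IFC ovaries were taken next to completely fused carpel (CFC) ovaries, the wild-type of the sample labels, in the middle of the same ears, unpollinated, at silking. The line, the field growth without stress and the stage were common to both phenotypes, and the labels give no mutation or treatment that separates them. There were 2 small RNA libraries of IFC ovaries and 2 of CFC ovaries, replicates from different ear rows, and 1 degradome library of each phenotype, made from a mix of its 2 samples. The values are normalized expression (NE), which the paper defines as the reads of a sequence scaled to its library total (RPM). Whole ovaries were sequenced, so that a change in the make-up of their cells and a change within a cell cannot be told apart.

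The commonest low NE, taken as the value of 1 read, was 1.15 and 0.837 in the IFC libraries and 0.717 and 0.879 in the CFC libraries. A sequence listed at 0 may therefore reach an NE of 3.44 and 2.51 in IFC replicates 1 and 2, and of 2.15 and 2.64 in CFC replicates 1 and 2, the values of 3 reads. This covers counting error only. With 1 read at these values, NE would be scaled to 873087 and 1194843 reads in IFC and to 1394658 and 1138013 in CFC. The paper reports far more valid reads for each phenotype, and the sources do not explain the difference. The value of 3 reads is therefore an assumed floor. Known miRNAs summed to an NE of 19255 and 26590 in IFC and of 28156 and 28278 in CFC. CFC replicate 1 stood apart from the other 3 libraries. It had the lowest passenger-arm share in 15 of the 21 families with both arms listed, and the main results that rest on it are given with and without it. The 7 listed sequences of miR2118 and miR2275, which trigger phased small RNAs in anthers and served as markers of another floral tissue, summed to an NE of 33.2 and 49.4 in IFC and of 43.4 and 19.3 in CFC. These markers overlapped between the phenotypes, and their part in the results was not tested.

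The sequences that the results turn on are shown first, with T for U as in the deposited table and with the seed, bases 2 to 8, in capitals. A suffix such as L+1 or R-1 gives the bases gained or lost at the left or right end relative to the miRBase entry, and ss a substitution. Of the 80 sequences no pair was identical, and they held 64 different seeds. There were 11 seeds shared by 27 sequences, and no seed occurred in more than 1 family. The seed of the miR166 passenger strands was the most common, with 6 sequences, and the 4 maize sequences among them differ from one another only beyond it.
zma-miR166c-5p: gGAATGTTgtctggctcgagg
zma-miR166m-5p: gGAATGTTggctggctcgagg
zma-miR166b-5p: gGAATGTTgtctggttcaagg
zma-miR166g-5p: gGAATGTTgtctggttggaga
The pair of miR168 passenger strands also shared a seed and differed at 1 of 21 bases.
zma-miR168b-3p_R+1: cCCGCCTTgcatcaagtgaat
zma-miR168a-3p_R+1: cCCGCCTTgcaccaagtgaat
A further pair, of miR171, differed at 1 of 21 bases as well, although the levels given below were far apart.
zma-miR171d-5p: tGTTGGCTcggctcactcaga
hvu-miR171-5p: tGTTGGCTcgactcactcaga
The passenger strands of miR399, by contrast, each had a seed of its own.
zma-miR399c-5p: gGGTACGTctcctttggcaca
zma-miR399e-5p: gGGCTTCTctttcttggcagg
zma-miR399f-5p: gGGCAACTtctcctttggcaga
Other sequences that are described below are an abundant strand of miR827 and one of miR156 that had the smallest p.
zma-miR827-5p_L+1: tTTTGTTGgtggtcatttaacc
zma-miR156e-3p_2ss13CA21TC: gCTCACTGctctatctgtcacc
For comparison, these are guide strands that pair with some of them.
zma-miR168a-5p: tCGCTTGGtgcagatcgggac
zma-miR399f-3p: tGCCAAAGgaaatttgccccg
zma-miR827-3p: tTAGATGAccatcagcaaaca

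Passenger and guide strands differed at the first base. Guanine opened 45 of the 80 passenger-arm sequences (56.2%) and none of the 65 guide-arm sequences, whereas thymine, standing for uridine, opened 14 (17.5%) of the passenger-arm and 56 (86.2%) of the guide-arm sequences. Cytosine opened 11 and 5, and adenine 10 and 4. The difference was the same in kind at the main length, since 29 of 48 passenger-arm and 0 of 41 guide-arm sequences of 21 nt began with guanine. The opening base followed the family. It was guanine in 10 of 11 passenger-arm sequences of miR166, 6 of 7 of miR156, 6 of 7 of miR399 and 5 of 5 of miR160, and cytosine in 6 of 7 of miR164. In miR171, 5 of 8 began with thymine, the base of the guides, and so did both of miR827. As the sequences of a family share bases, these counts are a description and were not tested.

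Length separated the arms less. Sequences of 21 nt made up 60.0% of the passenger-arm and 63.1% of the guide-arm sequences, and those of 22 nt made up 22.5% and 13.8%. The median GC content was 54.5% in both lists. A sequence identical to its miRBase entry was listed for 33 of 80 passenger-arm (41.2%) and 29 of 65 guide-arm sequences (44.6%). The arms differed in how many precursors could have given rise to them. Among the 111 separate precursor loci listed for the known miRNAs, 5 passenger-arm sequences occurred letter for letter in more than 1 locus and 62 in exactly 1, against 26 and 19 guide-arm sequences. The most widely shared guide occurred in 8 loci and the most widely shared passenger strand in 2. Most passenger strands thus matched 1 listed locus only, while many guides matched several. The remaining sequences of both lists matched none letter for letter. These matches do not show which loci the reads came from, since 26 of the 80 passenger strands held fractions of a read.

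Hairpins of miR168 and miR399 show how the strands face each other. The listed precursor of zma-miR168b-3p_R+1 lies at chr4:239639187-239639290 on the minus strand, and that of zma-miR399f-5p at chr6:159882381-159882485 on the minus strand. The genome build of these positions is not given in the sources used here. Both strands are in capitals.
zma-miR168b: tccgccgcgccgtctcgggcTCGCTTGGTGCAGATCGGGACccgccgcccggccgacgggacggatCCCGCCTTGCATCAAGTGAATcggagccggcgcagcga
zma-miR399f: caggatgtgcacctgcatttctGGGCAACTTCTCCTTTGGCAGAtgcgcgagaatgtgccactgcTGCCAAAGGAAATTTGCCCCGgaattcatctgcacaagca
The strand on the left of the miR168b hairpin has the sequence of zma-miR168a-5p, which also occurs in the miR168a hairpin. In the listed folds, 28 duplexes had both strands placed letter for letter in 1 precursor. DICER-LIKE1 leaves 3′ ends that overhang by 2 bases, and the passenger strand overhung the 5′ end of its guide by 2 bases in 22 of the 28 duplexes. The guide overhung the passenger strand by 2 bases in 19, and both ends had this overhang in 17. Within 1 base of it, both ends were found in 26. Most of the 28 passenger-arm sequences thus lay opposite the listed guide with the ends of a DICER-LIKE1 product.

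The strand with the less stable 5′ end is the one usually kept as a guide. Over the first 4 bases of each strand, with 3 points for a GC pair, 2 for an AU pair and 1 for a GU pair, the median was 9 for the guides and 10 for the passenger strands. The guide end had the lower sum in 15 of the 28 duplexes, the same sum in 4 and the higher sum in 9. No test was made on these duplexes, several of which belong to the same family.

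Passenger strands held a sizeable part of the known miRNA expression. Their summed NE was 3389 and 5770 in the IFC libraries and 2842 and 5731 in the CFC libraries. As a share of the known NE this was 17.6% and 21.7% in IFC, against 10.1% and 20.3% in CFC (means 19.6% ± 2.90 and 15.2% ± 7.19, SD, n = 2 each). The ranges of the phenotypes overlapped, and the difference of 4.47 percentage points gave p = 0.667 in a two-sided exact permutation test, whose smallest possible p is 0.333 with 2 libraries against 2. Without CFC replicate 1 the difference was -0.62 percentage points. The 5 highest passenger strands of a library carried between 69.1% and 76.5% of its passenger-arm NE.

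**Figure D1:**
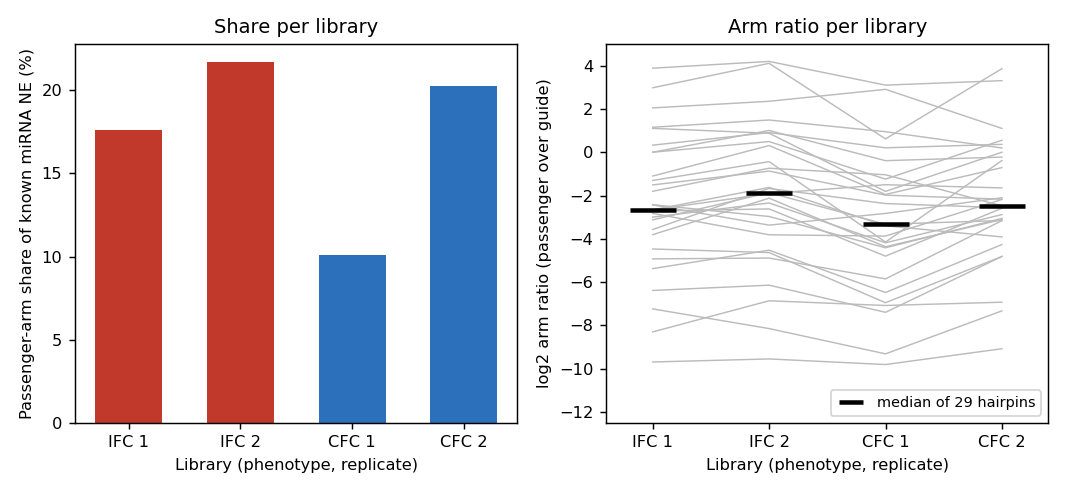
Left, the share of known miRNA NE held by the 80 passenger-arm sequences in each library (bars, in percent). Right, the log2 arm ratio, passenger over guide with 1 added to each NE, of 29 hairpins in the same libraries (a thin line joins the values of 1 hairpin, a black bar is the median). CFC replicate 1 has the lowest share, 10.1%, and the lowest median ratio, -3.33, while CFC replicate 2 lies near the IFC libraries.

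Expression was spread very unevenly over the passenger strands. Only 7 of the 80 had a mean NE over 100, and 32 had one over 10. A mean under 1 was found for 27, and 34 were listed at 0 in at least 1 library. The median of the mean NE was 3.33, compared with 12.4 for the guide-arm sequences. In 69 of the 80, 1 or more libraries had an NE over 1, and these were tested. Of the 69, 16 were at or under the value of 3 reads in every library, where no difference was detectable at this depth.

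The miRNA machinery gave the most abundant passenger strand. miR168 targets AGO1 itself. zma-miR168b-3p_R+1 had an NE of 720 and 2202 in IFC ovaries and of 443 and 1614 in CFC ovaries. Replicate 2 was the higher one in both phenotypes, and the phenotypes overlapped. The log2 fold change was 0.57 (standard error 0.89), and -0.36 without CFC replicate 1. This single sequence made up 21.3% and 38.2% of the passenger-arm NE in IFC and 15.6% and 28.2% in CFC. Its near copy zma-miR168a-3p_R+1 had an NE of only 61.8 and 133 in IFC and of 75.6 and 91.8 in CFC. Passenger strands thus made up 81.5% and 90.5% of the miR168 NE in IFC and 63.2% and 80.4% in CFC. miR162, which targets DICER-LIKE1, was different. zma-miR162-5p had an NE of 3.44 and 5.02 in IFC and of 0.717 and 14.1 in CFC, and its share of the family NE stayed between 0.725% and 9.52%.

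Among the miRNAs that target transcription factors, miR166, whose targets are HD-ZIP III factors that set organ polarity, had the most passenger strands and the highest sum. zma-miR166c-5p had an NE of 652 and 643 in IFC and of 350 and 989 in CFC, a log2 fold change of 0.14 (standard error 0.82). The IFC values lay between the CFC values. zma-miR166m-5p had 511 and 527 in IFC and 239 and 536 in CFC (log2 fold change 0.53, standard error 0.80), and zma-miR166b-5p had 144 and 294 in IFC and 68.5 and 299 in CFC (0.52, standard error 0.88). In each of the 3, CFC replicate 1 was the lowest library and CFC replicate 2 the highest. Leaving that lowest library out gave log2 fold changes of -0.61 for zma-miR166c-5p, -0.047 for zma-miR166m-5p and -0.54 for zma-miR166b-5p. The 11 passenger strands of miR166 held 19.98% and 20.13% of the family NE in IFC and 8.86% and 20.13% in CFC, so that 3 of the libraries had nearly the same share.

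miR171 targets GRAS factors of the meristem. zma-miR171d-5p had an NE of 145 and 202 in IFC and of 41.9 and 94.0 in CFC. Both IFC values were above both CFC values, with a log2 fold change of 1.43 (standard error 0.81, 95% interval -0.28 to 3.14), which was 0.86 without CFC replicate 1. hvu-miR171-5p, which shares its seed, was listed at 1.15 and 0.837 in IFC and at 0 in both CFC libraries, all within the value of 3 reads. zma-miR171m-5p_L-2R+3 had an NE of 3.44 and 3.35 in IFC and of 1.43 and 0 in CFC, where both values were under that of 3 reads. osa-miR171i-5p had 14.9 and 27.2 in IFC and 2.15, the value of 3 reads, and 17.1 in CFC (log2 fold change 1.49, standard error 0.91). The last overlapped between the phenotypes, with a log2 fold change of 0.22 without CFC replicate 1 and of 2.75 without CFC replicate 2. Passenger strands held 20.8% and 30.9% of the miR171 NE in IFC and 4.67% and 20.6% in CFC.

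miR156 targets SPL factors of phase change and inflorescence growth. zma-miR156e-3p_2ss13CA21TC had an NE of 14.1 and 30.5 in IFC ovaries and of 2.15 and 5.27 in CFC ovaries. Its NE in CFC replicate 1 was at the value of 3 reads. Both IFC values were above both CFC values. Its log2 fold change of 2.30 (standard error 0.82, 95% interval 0.56 to 4.03) was the highest of the 69 tested, and its unadjusted limma p of 0.0127 was the only one of a passenger strand under 0.05, a count that ran from 0 to 11 when 1 library was left out. After Benjamini-Hochberg adjustment over the 145 known miRNAs the limma p was 0.999. The deposited sequence differs from its listed precursor at 2 bases. Its mean NE (22.3 in IFC and 3.71 in CFC) also stands in the study's table of differential miRNAs, under another miR156 name. It is called up in IFC there. ata-miR156b-3p_1ss6TC, of another seed, had an NE of 2.29 and 30.1 in IFC and of 2.15 and 13.2 in CFC, and overlapped between the phenotypes. Its NE in replicate 1 of both phenotypes was at or under the value of 3 reads.

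Other strands of this group were lower. miR172 targets AP2 factors of floral identity. zma-miR172b-5p_L+1 had an NE of 5.15 and 5.44 in IFC and of 1.43 and 2.64 in CFC. The IFC values were higher without overlap, but the CFC values were within the value of 3 reads, and no fold change is given. miR396 targets GRF factors of organ growth. zma-miR396f-3p_2ss2GT7GT was listed at 0 in both IFC libraries and at 1.43 and 0.879 in CFC, again within the value of 3 reads. The passenger strands of miR319, which targets TCP factors, held at most 0.248% of the NE of their family in any library.

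Auxin-related miRNAs (miR160, miR167, miR390 and miR393) had 15 passenger strands, whose summed NE was 55.5 and 110 in IFC and 93.6 and 96.2 in CFC. miR393 targets auxin receptors. zma-miR393a-3p_L-1 had an NE of 0 and 0.418 in IFC and of 12.2 and 0.439 in CFC. The groups did not overlap, but 3 of the 4 values were under 1 read and the difference rested on CFC replicate 1. The same mean NE (0.209 in IFC and 6.31 in CFC) stands in the study's table of differential miRNAs under another miR393 name. zma-miR393b-3p_L-1 was listed at 0 in both IFC libraries and at 1.43 and 0.879 in CFC. In the other direction, zma-miR167g-3p_L+1, of a family that targets auxin response factors, was listed at 1.15 and 0.837 in IFC and at 0 in both CFC libraries. No fold change is given for these, since at least 1 phenotype was at or under the value of 3 reads.

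Nutrient-related miRNAs gave 12 passenger strands, with a summed NE of 544 and 615 in IFC and of 857 and 1187 in CFC. Most of this was zma-miR827-5p_L+1, from a family that acts in phosphate homeostasis. Its NE was 506 and 441 in IFC ovaries and 808 and 949 in CFC ovaries. Both IFC values were below both CFC values, and the log2 fold change was -0.89 (standard error 0.78, 95% interval -2.54 to 0.76). bdi-miR827-5p_L+2_2ss13TG19CT, a longer form of the same arm, was listed at 0 in both IFC libraries and at 1.43 and 0.879 in CFC. zma-miR399c-5p, of a family that answers to phosphate starvation, had an NE of 16.0 and 92.9 in IFC and of 5.74 and 177 in CFC. Replicate 2 was far above replicate 1 in both phenotypes, and its log2 fold change of 0.21 was smaller than its standard error of 1.23. The mean NE had the other direction, 54.5 in IFC and 91.2 in CFC, so the sign depends on the log scale, and the log2 fold change was -2.15 without CFC replicate 1.

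**Figure D2:**
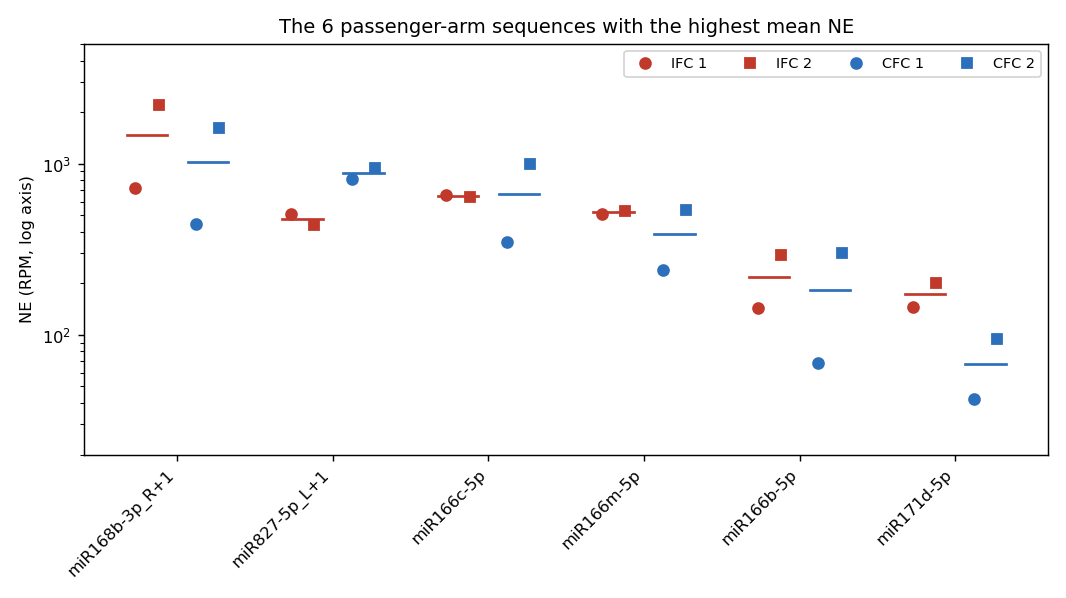
NE (RPM, log axis) of the 6 passenger-arm sequences with the highest mean NE in IFC (red) and CFC (blue) libraries. Circles are replicate 1, squares replicate 2 and short lines the means. zma-miR171d-5p has both IFC values above both CFC values, zma-miR827-5p_L+1 has both below, and the other 4 overlap.

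Over all 69 passenger strands tested, limma called 0 at an adjusted p under 0.05, as it did over all 145 known miRNAs (0% called). With an unadjusted p under 0.05 there was 1 passenger strand, which was also the only known miRNA (0.69%). A higher mean in IFC on the log scale was found for 42 and a lower one for 27, with a median log2 fold change of 0.14. Over all known miRNAs 71 were higher and 74 lower, with a median of -0.02 (74 higher and 71 lower, with a median of 0.02, after median-of-ratios rescaling), and over the 63 guide-arm sequences tested 21 were higher and 42 lower, with a median of -0.38. Both IFC values were above both CFC values in 9 of the 69 passenger strands (13.04%), beside 8.28% of all known miRNAs, and below in 6 (8.70%), beside 14.5%. Of these 15, 6 stayed within the value of 3 reads in every library. The split changed with single libraries. Without CFC replicate 1, 31 passenger strands were higher and 35 lower (median -0.02), and without IFC replicate 2, 24 were higher and 44 lower (median -0.33).

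Both arms of a hairpin of the same name were listed for 29 hairpins of 17 families, with 30 of the 80 passenger strands. In 17 of the 29 both arms were also listed with the same precursor. The guide was above the passenger strand in all 4 libraries in 20 hairpins. In 5 hairpins the passenger strand was above the guide in all 4 libraries, and in 4 hairpins the order changed between libraries. The mean log2 ratio ran from -9.53 to 3.62. The guides of 14 hairpins occur letter for letter in more than 1 listed locus, so their ratios may set a passenger strand against reads of several loci. Only 21 of the 65 guide-arm sequences had whole multiples of 1 read in all libraries, against 54 of the 80 passenger strands. A listed guide NE may thus be a part of its reads, which would raise the ratio. The sources do not say how reads were divided.

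The passenger strand exceeded the guide of the same name in hairpins of miR396, miR169 and miR399. osa-miR396e-3p_L-3 had an NE of 13.7 and 32.6 in IFC and of 44.5 and 17.6 in CFC, against 0 and 0.837 in IFC and 4.30 and 0.879 in CFC for its guide osa-miR396e-5p_L+1. This name is that of the rice precursor, and other guides of miR396 were far higher, since passenger strands held at most 11.3% of the miR396 NE in any library. The guide paired here is zma-miR396c_L-1 with an added base at its 5′ end. The form without that base is not part of the pair. zma-miR169c-3p_R-1 had an NE of 6.87 and 23.4 in IFC and of 9.32 and 16.7 in CFC, with its guide at 0 and 0.418 in IFC and at 5.74 and 0.220 in CFC. The passenger strand of zma-miR169a had 13.2 and 28.9 in IFC and 22.6 and 11.9 in CFC. Its guide had 10.3 and 14.9 in IFC and 19.5 and 9.01 in CFC, so that this excess was small. miR169 targets NF-YA factors.

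In miR399 the excess was found in 2 of the 3 hairpins with both arms listed by name. zma-miR399f-5p had an NE of 12.6 and 46.9 in IFC and of 28.0 and 36.9 in CFC, against 2.29 and 8.37 in IFC and 2.87 and 16.7 in CFC for zma-miR399f-3p. zma-miR399e-5p had 8.02 and 27.6 in IFC and 12.9 and 17.6 in CFC, against 3.05 and 9.21 in IFC and 6.21 and 15.2 in CFC for its guide. The hairpin of zma-miR399a had the other order, with its passenger strand at 0 and 1.67 in IFC and at 0 in both CFC libraries, below its guide at 5.35 and 7.25 in IFC and at 9.56 and 14.1 in CFC. For the family as a whole, passenger strands held 78.0% and 86.9% of the NE in IFC and 71.7% and 83.2% in CFC, with zma-miR399c-5p, which has no guide of its name in the table, among them. The families miR168 and miR399 were the 2 with guides listed in which passenger strands summed to more than the guides in all 4 libraries.

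The hairpin of miR168b showed the same order when the guide was found by its letters in the precursor of the passenger strand, a pairing added after the data were seen. It gave a guide to 73 of the 80 passenger strands, of which 56 were below and 6 above the guide in all 4 libraries. zma-miR168b-3p_R+1 was 4.05 and 9.01 times as high as zma-miR168a-5p in IFC and 1.47 and 3.87 times in CFC. zma-miR168a-5p had an NE of 178 and 244 in IFC and of 302 and 417 in CFC. This guide occurs in the precursors of both miR168a and miR168b. In replicate 1 of both phenotypes its NE was not a whole multiple of the value of 1 read. Whether the listed NE is a sum over both precursors or a part is not known. The ratios here and the miR168 shares given above depend on this.

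At the other end, the passenger strand of the same name was rare. miR164 targets NAC factors. zma-miR164a-3p was listed at 0 in both IFC libraries and at 0 and 0.879 in CFC, while the 2 guide sequences of zma-miR164a summed to an NE of 825 and 749 in IFC and of 896 and 1015 in CFC. zma-miR166j-5p had 2.29 and 0.837 in IFC and 0.717 and 2.64 in CFC, against 496 and 520 in IFC and 1093 and 584 in CFC for zma-miR166j-3p. The passenger strands of osa-miR166a had 0 and 2.51 in IFC and 0 and 3.51 in CFC, and its guides 314 and 408 in IFC and 134 and 549 in CFC. In these 3 hairpins the passenger arm was at most 0.64% of the sum of both arms as listed by name. The osa-miR166a passenger entries carry a substitution, and osa-miR166a-5p_1ss18AG differs from the more abundant zma-miR166b-5p at 1 of 21 bases. The guides zma-miR164a-5p and zma-miR166j-3p occur in 4 and 2 listed loci.

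**Figure D3:**
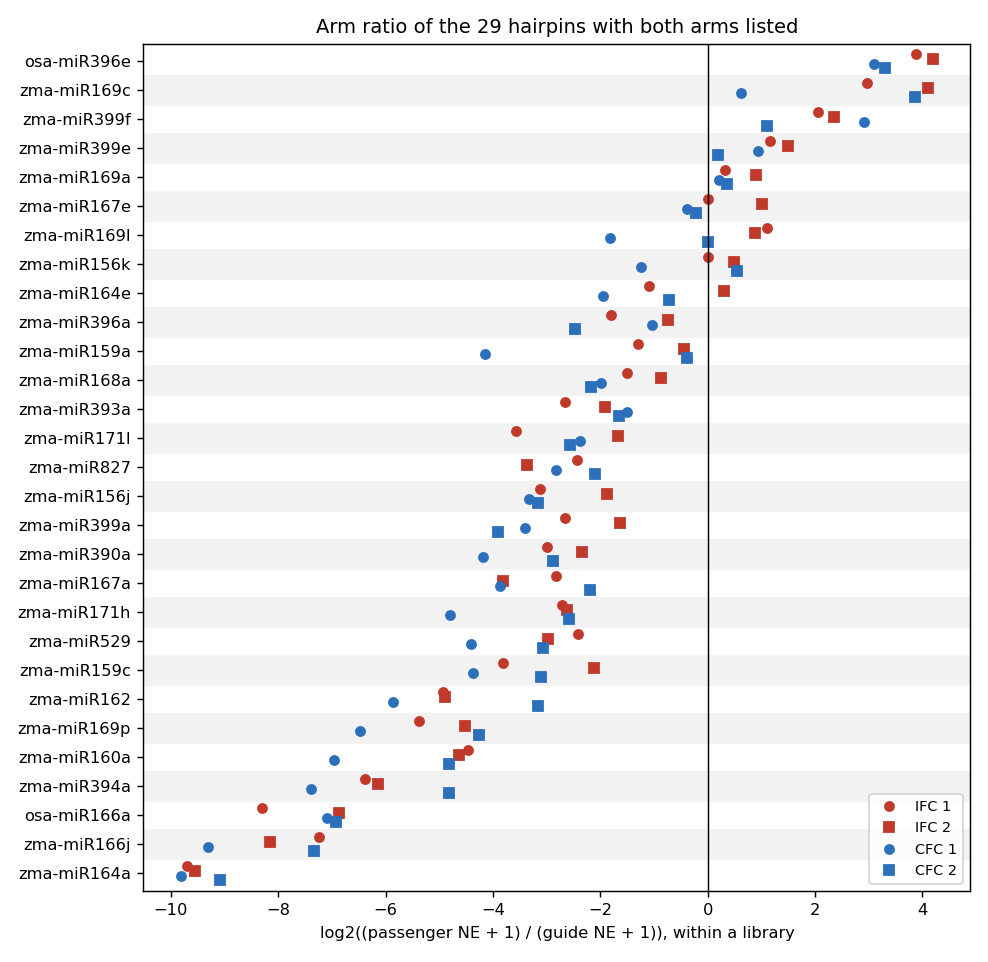
Log2 arm ratio, (passenger NE + 1) over (guide NE + 1) within a library, of the 29 hairpins with both arms listed, ordered by their mean. Red points are IFC, blue points CFC, circles replicate 1 and squares replicate 2. The ratios run over a far wider range between hairpins (means of -9.53 to 3.62) than between the libraries of a hairpin, and the blue circle of CFC replicate 1 is the lowest of the 4 in 20 hairpins.

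The arm ratios, taken within each library, were also compared between the phenotypes. Where an arm is at or near 0, the 1 added to each NE sets much of the ratio, which then moves with the scaling of the library. Limma called 0 of the 29 hairpins at an adjusted p under 0.05 (0% called), with 0 at an unadjusted p under 0.05 and a smallest unadjusted p of 0.05002. The ratio was higher in IFC in 21 hairpins and lower in 8, with a median change of 0.75 on the log2 scale. Both IFC ratios were above both CFC ratios in 9 hairpins (31%) and below in 1 (3.45%). Limma gave every hairpin the same standard error of 0.95, more than the median change. It pooled the spread over all hairpins (58 degrees of freedom), so its p ranks them by the size of the change alone.

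The 5 hairpins with the smallest p were those of zma-miR169l, zma-miR399a, zma-miR159a, zma-miR160a and zma-miR169c. The change of the log2 ratio was 1.89 in zma-miR169l, 1.51 in zma-miR399a, 1.40 in zma-miR159a, 1.33 in zma-miR160a and 1.30 in zma-miR169c, with an adjusted limma p of 0.825 for each. For zma-miR159a, of a family that targets MYB factors, the passenger strand was 28.6% and 42.4% of both arms in IFC, against 5.20% and 43.4% in CFC. Its guide had an NE of 171 and 124 in IFC and of 647 and 165 in CFC. For zma-miR160a the passenger strand was 3.08% and 3.03% in IFC and 0.338% and 2.24% in CFC, and its guide had an NE of 72.0 and 107 in IFC and of 212 and 76.7 in CFC. In both hairpins CFC replicate 1, with the highest guide, had the low ratio. Without it the change was -0.49 for zma-miR159a, 0.26 for zma-miR160a and -0.32 for zma-miR169c. The passenger strands of zma-miR169l and zma-miR399a did not exceed an NE of 1.67 anywhere, and much of each change came from the guide. The guide of zma-miR169l was at 5.02 in CFC replicate 1 and at 0 in both IFC libraries and CFC replicate 2. That of zma-miR399a was at 5.35 and 7.25 in IFC and at 9.56 and 14.1 in CFC.

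The difference in arm ratio was seen against CFC replicate 1 more than against CFC replicate 2. This library had the lowest ratio of the 4 in 20 of the 29 hairpins, and IFC replicate 2 the highest in 14. The median log2 ratio was -2.67 and -1.87 in the IFC libraries and -3.33 and -2.48 in the CFC libraries. Both IFC ratios were above CFC replicate 1 in 23 hairpins and below it in 2, but they were above CFC replicate 2 in 11 and below it in 10. Without CFC replicate 1 the median change was 0.15, with 15 hairpins higher in IFC and 14 lower. Without CFC replicate 2 it was 0.94, and limma then called 4 hairpins, those of zma-miR159a, zma-miR160a, zma-miR169c and zma-miR169l, with the lone CFC library taken to vary like the others.

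In the degradome, which sequences the 5′ ends of cleaved mRNAs, no passenger strand had a prominent cleavage site. The deposited table lists 39 sites for 16 of the 80 passenger strands, in 23 genes, counting each transcript as a site. Sites are ranked by category: 0 and 1 are the maximum of the transcript, 2 lies above its median, 3 at or under it, and 4 has a single read. None of the 39 was in category 0 or 1 in either library, against 216 of the 355 sites (60.8%) of the other known miRNAs. Those 355 sites were counted per miRNA and transcript as well and fell in 73 genes, so they are not independent. The deposited p-value was above 0.05 for each of the 39, while 186 of the 355 (52.4%) had one at or under 0.05. With 1 degradome library of each phenotype there was no test.

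By category, 10, 1 and 13 of the 24 passenger-strand sites with tags in the IFC library were in categories 2, 3 and 4. In the CFC library 8, 0 and 19 of 27 sites were. Tags in both libraries were found at 12 of the 39 sites. The signal, in TPB (tags scaled to the library total), had a median of 59.1 in IFC and 30.0 in CFC at passenger-strand sites, and of 177 in IFC and 231 in CFC at those of the other known miRNAs. Passenger-strand sites of a single read (category 4) reached 59.1 TPB in IFC and 59.9 TPB in CFC. The passenger-strand medians were thus not above the signal of 1 read. The alignment score, a sum of mismatch penalties, was 3 to 4 (median 4) for passenger strands and 0 to 4 (median 3) for the others.

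**Figure D4:**
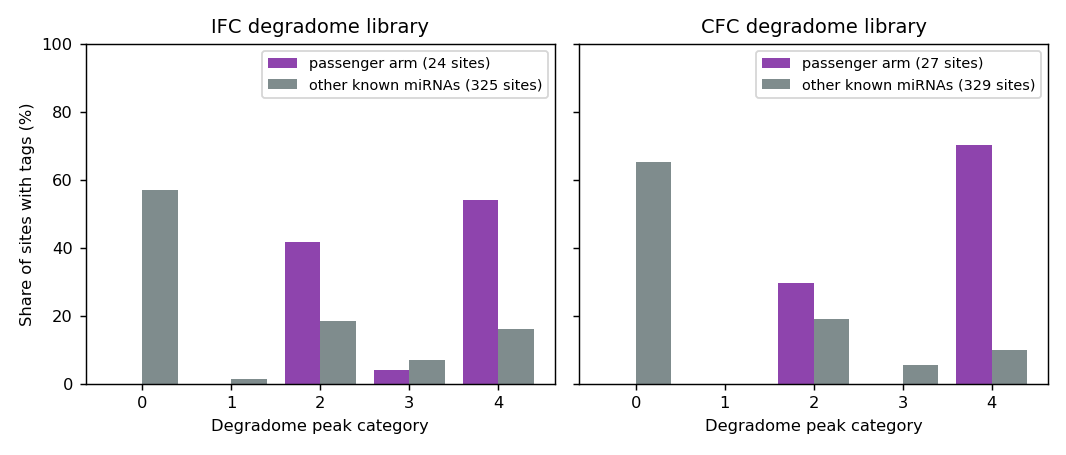
Share of sites (in percent of the sites with tags) in each degradome peak category, IFC library on the left and CFC library on the right, for passenger-arm sequences (24 and 27 sites) and the other known miRNAs (325 and 329 sites). No passenger-arm site is in category 0 or 1, where the other known miRNAs have most of their sites.

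The site with the lowest deposited p-value was that of zma-miR164d-3p_R+1 in GRMZM2G019500, annotated as a clathrin light chain protein. It had 73.9 TPB in IFC, with a deposited p-value of 0.194, and 89.9 TPB in CFC, with one of 0.787. zma-miR167h-3p_L+1R+1 had a site in GRMZM2G009808, an aconitase, with 118 TPB in IFC and 40.0 TPB in CFC, both in category 2. Its CFC value was below the 59.9 TPB that a site of a single read reached. The highest signal, 946 TPB in IFC against 59.9 TPB in CFC, was at a site of zma-miR399j-5p_L-1 in GRMZM2G051917, annotated as a choline transporter, with a deposited p-value of 0.912 in IFC. The CFC value was in category 4, a single read, and this strand had a mean NE of only 0.43. These 3 sites were named after their values were seen. zma-miR168b-3p_R+1, zma-miR827-5p_L+1, zma-miR171d-5p and the miR166 strands shown above had none in the table.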

How the data were processed

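For the small RNA libraries, the authors trimmed reads, discarded junk reads and those matching other RNA classes, exons or repeats, assigned the rest to miRBase hairpins using ACGT101-miR, and gave each sequence an NE in RPM. For the degradome, the authors deposited a signal (TPB), a category and a p-value per CleaveLand site. The genome build was not stated. The extraction protocol in the labels names a tissue that maize lacks and was not relied on.

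Sequences were kept where any library exceeded an NE of 1 (145 known miRNAs), and IFC was set against CFC by limma 3.58.1 (R 4.3.3) on log2(NE + 1), two-sided, without a block, at a Benjamini-Hochberg adjusted p of 0.05. This scale understates changes of low sequences. Arm ratios were treated likewise. Python 3.11.15, numpy 2.4.6 and matplotlib 3.10.9 did the rest, and simulated data were used to test the fit. NE was not taken back to reads, since 26 of the 80 passenger strands held fractions of a read. Nothing says that the replicates are separate plants, so p-values measure the spread between these libraries only. For the arm ratios this spread is the one pooled over all hairpins.

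Sequences were named by abundance (the 5 highest) and by limma p among those without overlap (10). Those listed under the same name in the study's table of differential miRNAs were named too. Hairpins were named by limma p (5), by a passenger strand over its guide, or by the 3 lowest ratios. One emptied line of the table was not used here, 1 passenger strand is not reported here by name, and degradome sites of 77 rows whose miRNA name has no expression row were left out. Members, lists and this rule were chosen with earlier results of these data known.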

Additional observations from a re-analysis of the deposited data

How the results depend on the processing

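No sequence and no hairpin was called under any alternative except where 1 library was left out, when 0 to 4 arm ratios and 0 passenger strands were called. Leaving out each library in turn gave a difference in passenger-arm share of -0.62 to 9.56 percentage points, a median change of arm ratio of 0.15 to 0.94 and a median log2 fold change of the passenger strands of -0.33 to 0.57. The log2 fold change changed sign for ata-miR156b-3p_1ss6TC (-1.02 to 2.22), zma-miR166b-5p (-0.54 to 1.57), zma-miR166c-5p (-0.61 to 0.89), zma-miR166m-5p (-0.047 to 1.11), zma-miR168b-3p_R+1 (-0.36 to 1.51) and zma-miR399c-5p (-2.15 to 2.57), and the change of arm ratio for zma-miR159a (-0.49 to 3.28) and zma-miR169c (-0.32 to 2.93). The cause was not tested. The 4 calls were made without CFC replicate 2.

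Other pseudocounts (0.5 and 5), filters, a median-of-ratios rescaling, a trended robust fit and other ways of pairing arms, of which those by letter and by sequence were added after the data were seen, changed no call and no direction of the named sequences, the hairpins or the medians of passenger strands and arm ratios. The median over all known miRNAs, -0.02, was 0.02 after the rescaling and 0.0032 with an NE above 5 as the filter. Passenger strands with an unadjusted limma p under 0.05 numbered 3 at a pseudocount of 5, 2 after the rescaling and 2 with the replicate block. Without 1 library there were 0 (either IFC library), 5 (CFC replicate 1) and 11 (CFC replicate 2). With the replicate number as a replicate block, 0 passenger strands and 0 arm ratios were called. Deviations of same-numbered libraries correlated at 0.25 over the known miRNAs, with only 2 pairs, and at -0.24 over the arm ratios. Crossed pairing, added after the data were seen, also called 0. With 2 libraries a group, no exact test could pass 0.05, and sequences within 3 reads could not be compared.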
